A study of Mus musculus with 2 samples.

Results

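The genes described here are 41 genes of cholesterol and fatty acid synthesis, chosen by name from a list of enzymes and regulators of the pathways. All 41 were found among the gene names of the arrays, with 80 of 41174 non-control probes, and all 41 were among the 15267 genes tested. The study compared sorted fractions of the GIF-5 line, mouse epithelium of the stomach with the genotype Runx3-/-p53-/- in every sample, grown in DMEM with bovine serum and detached with trypsin. CD133-positive and CD133-negative cells were separated by flow cytometry with an antibody against CD133, the membrane glycoprotein encoded by Prom1, often taken to mark stem-like cells. Both fractions, CD133-positive in Cy3 and CD133-negative in Cy5, were hybridised together on each of 2 arrays. All samples come from this single cell line.

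Cholesterol is built from acetyl-CoA by the mevalonate pathway, which runs through isoprenoids to squalene and then through sterol intermediates. Fatty acids are built from the same acetyl-CoA by carboxylation and chain growth, and are then elongated, desaturated, activated by acyl-CoA synthetases and stored as triglyceride. Transcription of most of these enzymes is driven by the sterol regulatory element-binding proteins, encoded by Srebf1 and Srebf2. The escort protein Scap carries them to the Golgi for activation, and the Insig proteins hold them back in the endoplasmic reticulum when sterols are plentiful. Epithelial cells of the stomach use these pathways for membranes.

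The promoters below are shown because SREBP elements and CCAAT boxes near the start are known control features of these pathways, and because they belong to the sterol gene with the lowest mean ratio, the gene with the highest ratio and a pair of acyl chain genes described below. Each is the 250 bases before the annotated start, plus strand, from RefSeq (GRCm38.p6): chr13:119690101-119690350 for Hmgcs1, chr5:114165268-114165517 for Acacb, chr8:46490716-46490965 for Acsl1 and chr9:77917115-77917364 for Elovl5. Capitals mark matches, on either strand, to the SREBP element TCACNCCAC, the CCAAT box CCAAT that binds NF-Y, and the E-box CACGTG. None of the capital stretches overlap. Acsl1 has 2 starts in the table, and the start shown was chosen because it holds a match to the SREBP element.
Hmgcs1: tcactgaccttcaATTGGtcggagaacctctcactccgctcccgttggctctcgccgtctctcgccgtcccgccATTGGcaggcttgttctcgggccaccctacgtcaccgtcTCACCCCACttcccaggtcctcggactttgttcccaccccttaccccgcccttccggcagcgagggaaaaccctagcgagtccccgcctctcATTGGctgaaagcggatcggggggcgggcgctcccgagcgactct
Acacb: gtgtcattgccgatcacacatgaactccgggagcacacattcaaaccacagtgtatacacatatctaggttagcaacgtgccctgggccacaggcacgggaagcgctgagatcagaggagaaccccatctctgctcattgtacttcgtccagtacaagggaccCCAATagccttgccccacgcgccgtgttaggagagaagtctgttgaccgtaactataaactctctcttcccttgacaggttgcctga
Acsl1: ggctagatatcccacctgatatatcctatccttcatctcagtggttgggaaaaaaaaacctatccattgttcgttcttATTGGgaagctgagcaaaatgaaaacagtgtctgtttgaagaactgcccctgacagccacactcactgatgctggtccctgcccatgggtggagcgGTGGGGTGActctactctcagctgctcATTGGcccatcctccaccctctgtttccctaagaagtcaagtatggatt
Elovl5: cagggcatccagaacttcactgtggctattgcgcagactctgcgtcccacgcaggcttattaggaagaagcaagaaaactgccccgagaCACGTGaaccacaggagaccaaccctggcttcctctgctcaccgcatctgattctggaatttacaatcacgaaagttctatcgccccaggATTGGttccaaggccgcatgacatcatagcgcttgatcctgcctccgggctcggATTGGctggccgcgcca

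A promoter was listed for 32 of the 41 genes, 42 promoters in all. The SREBP element was found in 2 of the 42, for Hmgcs1 at 137 bases and Acsl1 at 76 bases before the start, or 4.76%, and in 1.05% of 32851 promoters of the same length. A CCAAT box was found in 25 of the 42 promoters, or 59.5%, and in 33.8% of all promoters. The 25 belong to 24 genes, among them 13 of the 14 sterol genes and 7 of the 12 fatty acid genes with a promoter listed. A promoter was listed for 1 of the 3 glyceride genes, and Dgat2, described below, had none. An E-box was found in 6 of the 42, or 14.3%, and in 6.02% of all promoters. A match is a description of these letters and not a binding site.

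Each value is the log2 of the CD133-positive signal divided by the CD133-negative signal after background correction and loess normalisation, so a value of 1 is a 2-fold higher signal. Means are over both arrays, with the moderated standard error (SE, n = 2). The labels call the arrays biological replicates and do not say whether the cells were cultured and sorted separately, so p-values measure only the spread between these samples, which may be technical. CD133-positive RNA carried Cy3 on both arrays, so an effect of the dye on a gene cannot be told apart from the fraction. Less RNA per cell and fewer cells of a kind cannot be told apart either, since each fraction is a bulk sample. Both arrays lay on 1 slide with 1 scan time.

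Over all tested genes, 211 were called higher and 40 lower in CD133-positive cells at an adjusted p under 0.05 (limma, two-sided, Benjamini-Hochberg), which is 1.38% and 0.262% of the genes and 1.64% in either direction. The share of calls that were higher was 84.1%, and 60.8% to 72.6% without loess, without background correction, with a smaller offset or with scaling between arrays. It was 4.79% when loess was replaced by centring every array on the median of all probes, which moved the median of the tested genes from -0.03 to -0.74. Prom1, the gene of the sorting antigen, cleared background in the CD133-positive fraction on both arrays, at log2 intensities of 9.45 and 9.28, and in the other fraction on neither. Of the epithelial markers, Krt8, Krt18, Krt19, Cdh1 and Elf3 were well above background in both fractions on both arrays and Cldn7 in CD133-positive cells. The keratins Krt8, Krt18 and Krt19 were lower in CD133-positive cells on both arrays, with means of -0.78, -0.54 and -0.79, and Elf3 was higher, at 1.03, all short of the threshold (adjusted p of 0.067 to 0.12). The part of these shifts in the results below was not tested. Epcam and Cldn4 cleared background on 1 array in the CD133-negative fraction and on none in the other, and were not tested. Probes of Runx3 and Trp53 gave 0.05 ± 0.14 and -0.05 ± 0.14, and it is not known whether these probes fall inside the deleted sequence, so they check nothing.

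Of the 41 lipid synthesis genes, 1 was called higher and 0 lower, against 1.38% and 0.262% of all genes. The gene called was Dgat2, which joins the last acyl chain to diacylglycerol to make triglyceride. Acacb, the acetyl-CoA carboxylase of the mitochondrial surface whose product restrains fatty acid oxidation, had the highest ratio but missed the threshold. Before adjustment, 4 of the genes were higher and 4 lower with p under 0.05, against 11.9% higher and 16% lower over all genes. By size alone 2 of the genes, Acacb and Dgat2, were at least 2-fold higher on both arrays and 0 at least 2-fold lower, against 2.5% and 2.12% of all genes. Mean ratios lay beyond 0.5 in either direction in 10 of 41 genes, or 24.4%, against 26.1% of all genes.

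**Figure D1:**
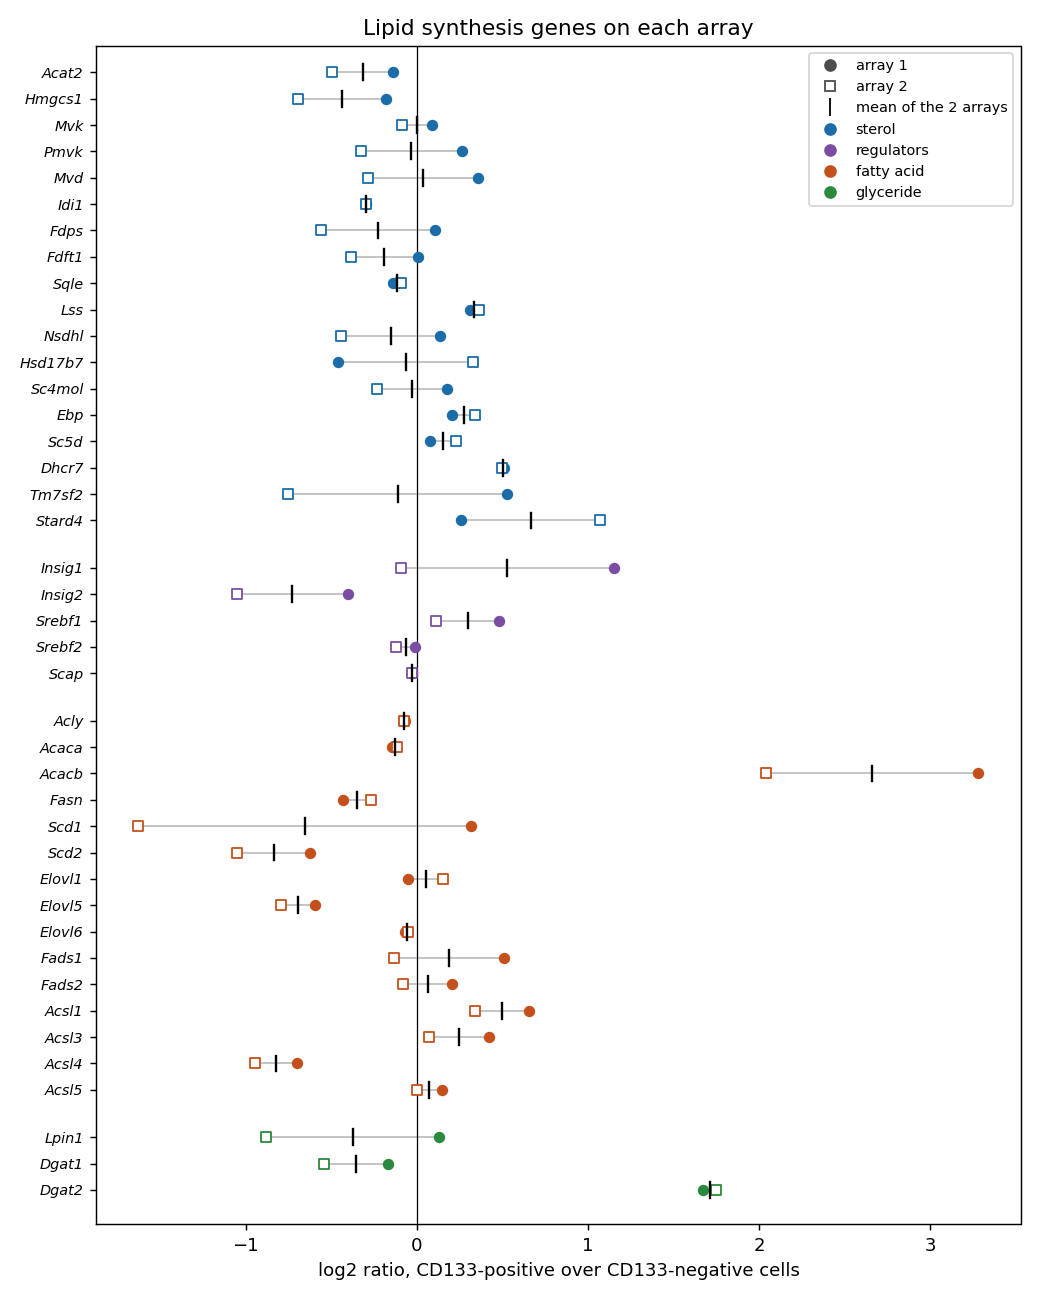
Log2 ratio of CD133-positive over CD133-negative cells (horizontal axis) for each of the 41 genes, in rows grouped by role, with filled circles for array 1, open squares for array 2 and a bar for their mean. Dgat2 and Acacb stand to the right, at 1.71 and 2.66, and most sterol genes lie around 0 with the arrays on either side.

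Ratios had the same sign on both arrays in 25 of the 41 genes, 10 above 0 and 15 below 0. They were above 0 on both arrays in 32.6% of all genes and below 0 on both in 39.7%, and the signs were opposite in 27.8% of all genes against 39.0% of these. The 95% interval of the ratio lay within 2-fold either way for 30 of the 41 genes, and 16 of them were in the sterol group of 18. The share over all tested genes is not given, so these counts are not set against other genes.

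The steps from acetyl-CoA to squalene are covered by 8 genes, and none of them was called. Hmgcs1, which makes HMG-CoA, had log2 intensities of 13.58 in CD133-positive and 13.76 in CD133-negative cells on array 1 and of 13.64 and 14.33 on array 2. It was lower in CD133-positive cells on both arrays, by a mean of -0.44 ± 0.19, the lowest of the sterol group (limma adjusted p = 0.23). Its other tested probes gave -0.32 and -0.45.

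Idi1, the isomerase of isopentenyl diphosphate, had the same ratio of -0.30 on both arrays (-0.30 ± 0.14, adjusted p = 0.25). Acat2, the acetyl-CoA acetyltransferase of the first step, was at -0.14 and -0.49 on arrays 1 and 2. The kinases Mvk and Pmvk and the decarboxylase Mvd were above 0 on array 1 and below 0 on array 2, with means of 0.00, -0.03 and 0.04. Fdps, which makes farnesyl diphosphate, went from 0.11 on array 1 to -0.56 on array 2, and Fdft1, the squalene synthase, from 0.01 to -0.39.

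In all 8 of these genes the ratio was higher on array 1 than on array 2, with a median gap of 0.45, against 56.7% of all genes and a median gap of 0.06. The gap of Idi1 was the smallest of them, under 0.01. Of the 9 later enzymes of the pathway, 4 had the higher ratio on array 1. So did 11 of the 15 fatty acid genes, among them all 4 acyl-CoA synthetases, and 4 of the 5 regulators. Over all 41 lipid synthesis genes the count was 29, or 70.7%, with a median gap of 0.29. The gap was thus not particular to the steps up to squalene, a split made after the values were seen. The ratios of all 10 spiked-in control RNAs were also higher on array 1. The gap had a median of 0.38 and ran from 0.23 to 0.44. Their part in the gap of these genes was not tested.

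Of the 9 enzymes after squalene, none was called either, and the signs were mixed. Dhcr7, which reduces 7-dehydrocholesterol to cholesterol, had log2 intensities of 12.01 and 11.50 in CD133-positive and CD133-negative cells on array 1 and of 12.46 and 11.97 on array 2. The ratio was 0.51 on array 1 and 0.50 on array 2, and the mean of 0.50 ± 0.14 missed the threshold (adjusted p = 0.12). A second Dhcr7 probe gave 0.43. Lss, the cyclase that forms lanosterol, was at 0.31 and 0.36, and its 3 tested probes lay between 0.23 and 0.60. Ebp, the sterol isomerase, was at 0.21 and 0.34 and Sc5d, the desaturase before Dhcr7, at 0.07 and 0.23.

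Sqle, the squalene epoxidase, was at -0.14 and -0.09 (mean -0.12 ± 0.14, 95% interval -0.50 to 0.27). The demethylation enzymes Sc4mol, now named Msmo1, and Nsdhl were above 0 on array 1 and below 0 on array 2, with means of -0.03 and -0.15. Hsd17b7, which acts in the same demethylation, was at -0.46 and 0.33. Tm7sf2, a sterol reductase, had the largest gap of the sterol group, with 0.53 on array 1 and -0.75 on array 2. Signs of the mean of Mvk, Mvd, Hsd17b7, Sc4mol, Ebp and Sc5d changed with the scaling of the arrays.

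Stard4, a carrier of cholesterol between membranes, had the highest ratio of the sterol group. Its log2 intensities were 10.91 and 10.65 in CD133-positive and CD133-negative cells on array 1 and 11.76 and 10.69 on array 2. It was higher in CD133-positive cells on both arrays, at 0.26 and 1.07 (mean 0.67 ± 0.25, adjusted p = 0.19), and its 3 tested probes had means of 0.67 to 0.75.

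None of the 5 regulators was called. On both arrays 3 lay below 0 and 1 above. Insig2 was the lowest, with log2 intensities of 10.55 and 10.95 in CD133-positive and CD133-negative cells on array 1 and of 9.79 and 10.85 on array 2. It was lower on both arrays, with a mean of -0.73 ± 0.21 (adjusted p = 0.14), and a second probe gave -0.48. Insig1, itself a target of the SREBPs, was at 1.15 on array 1 and -0.09 on array 2, so its mean of 0.53 ± 0.34 rests on array 1 (adjusted p = 0.39). The second Insig1 probe had a mean of 0.12.

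Srebf1, whose products favour fatty acid genes, was at 0.48 and 0.12 (mean 0.30 ± 0.16). Srebf2, whose product favours sterol genes, was at -0.01 and -0.12, and its 4 tested probes lay between -0.40 and -0.07. Scap was at -0.03 on both arrays (95% interval -0.41 to 0.36). The signs of Srebf1, Srebf2 and Scap changed with the scaling.

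By their brightest probes, 1 of the 4 genes grouped at the start of fatty acid synthesis, Acacb, was above 0 on both arrays. The other 3 were below 0 on both, and 0 of the 4 were called. Acacb had log2 intensities of 10.16 in CD133-positive and 6.87 in CD133-negative cells on array 1 and of 9.44 and 7.40 on array 2. Both CD133-positive values exceeded both CD133-negative values. The ratio was 3.28 and 2.04 on the arrays, a 6.33-fold difference in the mean (2.66 ± 0.34, 95% interval 1.70 to 3.63), and the adjusted p of limma was 0.065. The ratio was higher in 0.675% of all tested genes. A second Acacb probe, at -0.01 and -0.03, was not well above background in either fraction on either array and was not tested. It is the probe annotated to a RefSeq transcript, and the tested probe is not. The value thus rests on 1 probe.

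Acaca, the cytosolic carboxylase that makes malonyl-CoA for synthesis, was at -0.14 and -0.11 (mean -0.13 ± 0.14). Its 3 dimmer probes had means between 0.01 and 0.05. Acly, which makes cytosolic acetyl-CoA from citrate, was at -0.07 and -0.08. Fasn, the fatty acid synthase, was at -0.43 and -0.27 by its brighter probe (mean -0.35 ± 0.14, adjusted p = 0.22). A dimmer Fasn probe was above 0 on both arrays, with a mean of 0.25, so the direction of Fasn is not settled.

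Acacb and Acaca catalyse the same reaction, yet their intervals, 1.70 to 3.63 and -0.51 to 0.25, did not overlap. The difference between the genes was not tested.

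**Figure D2:**
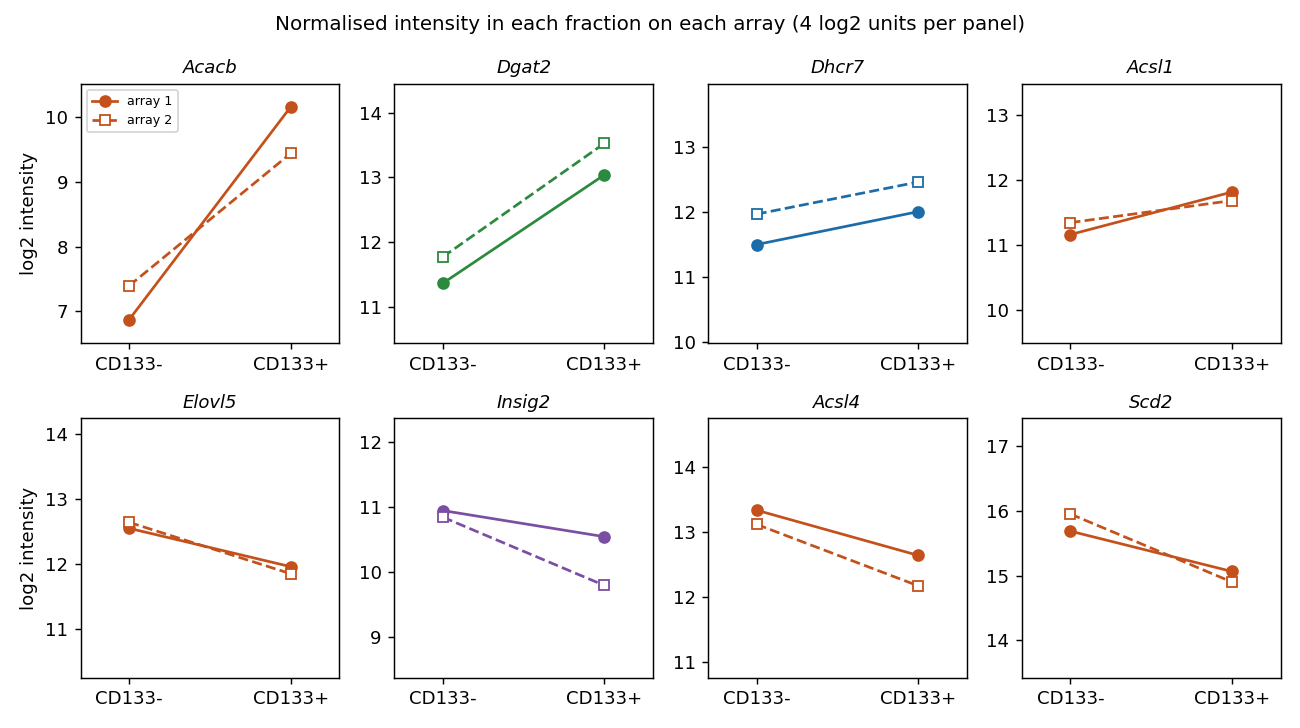
Normalised log2 intensity (vertical axis, 4 units in every panel) in CD133-negative and CD133-positive cells for the 8 genes with an unadjusted p under 0.05, with filled circles and solid lines for array 1 and open squares and dashed lines for array 2. Acacb and Dgat2 lie higher in CD133-positive cells on both arrays, by 2.66 and 1.71 on average, and the means of the other 6 genes differ by less than 1.

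Among desaturases and elongases, which shape the acyl chains, Scd2 and Elovl5 had the lowest ratios that held on both arrays. Scd2, a stearoyl-CoA desaturase, had log2 intensities of 15.06 and 15.69 in CD133-positive and CD133-negative cells on array 1 and of 14.90 and 15.95 on array 2. Its mean ratio of -0.84 ± 0.17 missed the threshold (adjusted p = 0.093). Elovl5, which elongates polyunsaturated chains, had 11.95 and 12.55 on array 1 and 11.85 and 12.64 on array 2 (mean -0.69 ± 0.14, adjusted p = 0.094). The second Elovl5 probe gave -0.67. In both genes every CD133-negative value exceeded every CD133-positive value.

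Scd1, the related desaturase, was at 0.32 on array 1 and -1.63 on array 2, the largest gap of all 41 genes (mean -0.65 ± 0.51, adjusted p = 0.48). Elovl1 and Elovl6, elongases of very long and of saturated chains, had means of 0.05 and -0.06 with SE of 0.15 and 0.14. The desaturases Fads1 and Fads2 of polyunsaturated synthesis were above 0 on array 1 and below 0 on array 2, with means of 0.19 and 0.06.

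The acyl-CoA synthetases, which activate free fatty acids, differed among themselves. Acsl4, which prefers arachidonic acid, had log2 intensities of 12.64 and 13.34 in CD133-positive and CD133-negative cells on array 1 and of 12.17 and 13.12 on array 2. It was lower on both arrays, with a mean of -0.82 ± 0.15 (adjusted p = 0.083) and -1.05 by a second probe. Acsl1 was in the opposite direction, with 11.82 and 11.16 on array 1 and 11.68 and 11.34 on array 2 (mean 0.50 ± 0.16, adjusted p = 0.15). The dimmer Acsl1 probes had means of 0.23 and 0.22. They were at 0.43 and 0.48 on array 1 and at 0.03 and -0.04 on array 2. The direction of Acsl1 on array 2 thus rests on the brightest probe. The 95% intervals of Acsl1 and Acsl4 were 0.05 to 0.94 and -1.25 to -0.40, and the difference itself was not tested. Acsl3 was at 0.42 and 0.07, and Acsl5 at 0.15 and 0.00. The signs of Elovl1, Fads1, Fads2, Acsl3 and Acsl5 changed with the scaling.

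For triglyceride synthesis, Dgat2 had log2 intensities of 13.04 in CD133-positive and 11.37 in CD133-negative cells on array 1 and of 13.53 and 11.77 on array 2. The ratios of 1.67 and 1.75 agreed closely, for a mean of 1.71 ± 0.14, a 3.28-fold difference (95% interval 1.33 to 2.10 on the log2 scale, limma adjusted p = 0.031). Its other tested probes gave 1.46 and 1.39. The call was lost, without a change of direction, with the deposited processed signals (adjusted p = 0.052), with no filter on dim probes (0.074), with the dimmest probe (0.051), against a log2 fold of 0.5 (0.059) and without moderation (0.48).

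Dgat1, which catalyses the same reaction as Dgat2 but is unrelated in sequence, was lower on both arrays, at -0.17 and -0.55 (mean -0.36 ± 0.17, adjusted p = 0.26). A second Dgat1 probe was at 0.05 and -0.42, so the direction on array 1 rests on the brighter probe. The 95% intervals of Dgat1 and Dgat2 did not overlap, and the difference was not tested. Lpin1, a phosphatidate phosphatase, was at 0.13 and -0.88 (mean -0.37 ± 0.29), and its 4 probes had means of -0.40 to -0.26. Of 6 adipocyte markers, Adipoq, Lep and Cfd cleared background in no fraction on any array, and Plin1 was not tested. Of the 2 tested, Cidec was at 1.46 and -0.05 and Fabp4 cleared background in CD133-negative cells and not in CD133-positive cells. The summed intensity of the pair, nearly all of it from Cidec, was 4315 and 3305 in CD133-positive cells and 1635 and 3478 in CD133-negative cells on arrays 1 and 2. Of the 5 endothelial markers, Cdh5 was called higher in CD133-positive cells (limma adjusted p = 0.043) and cleared background on both arrays there and on neither in CD133-negative cells, while the other 4, Pecam1, Kdr, Tek and Cldn5, cleared it nowhere. Of 7 fibroblast and 6 blood cell markers 2 and 3 were tested, and 0 of these were called. The fibroblast marker Col1a1 was lower in CD133-positive cells on both arrays, at -1.03 and -1.47 (limma adjusted p = 0.067). The other fibroblast marker tested, Col1a2, was at 0.13 and 0.03. The part of these markers in the ratios of Dgat2 and Acacb was not tested.

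**Figure D3:**
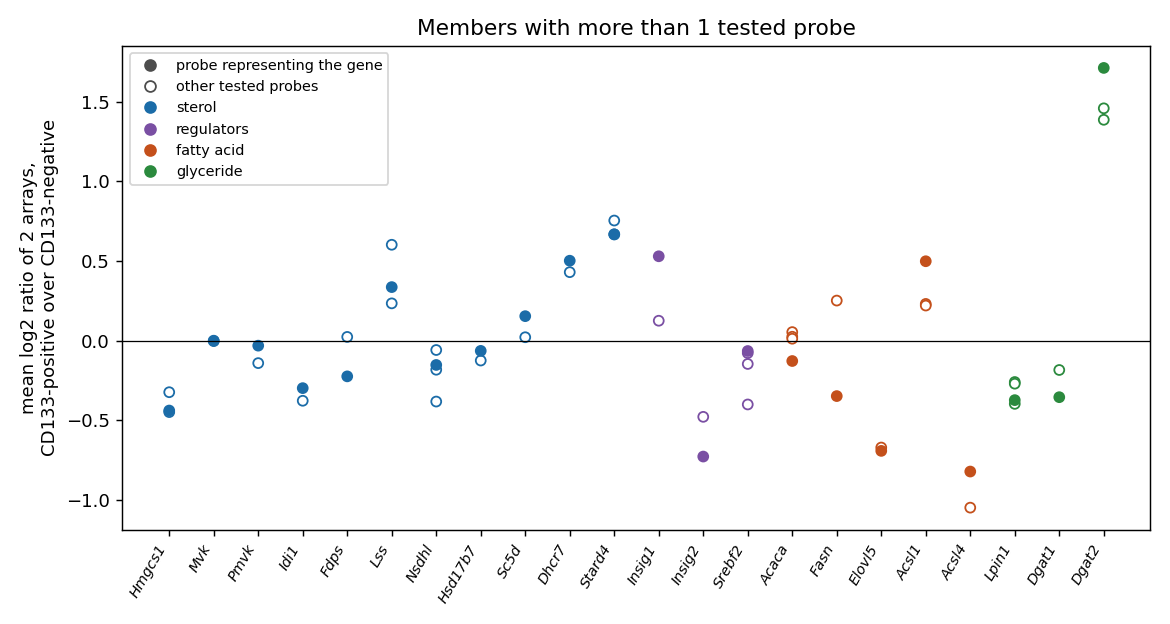
Mean log2 ratio of both arrays (vertical axis) for every tested probe of the 22 genes with more than 1, with the probe that represents the gene filled and the others open. The 3 Dgat2 probes lie between 1.39 and 1.71, and the probes of Fdps, Acaca and Fasn lie on both sides of 0.

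Sterol and fatty acid synthesis were compared as groups by their medians. The 18 sterol genes had a median of -0.05, with 0.12 on array 1 and -0.26 on array 2. The 15 fatty acid genes had a median of -0.06, with -0.05 and -0.08. The median over all tested genes was -0.03. When loess was replaced by centring on the tested genes, the medians were -0.27 for sterol and -0.26 for fatty acid genes, against -0.01 over all tested genes. The sterol median minus the fatty acid median was 0.17 on array 1 and -0.18 on array 2, and 0.01 for the averaged ratios. The smallest p that an exact two-sided sign-flip test can give with 2 arrays is 0.5, so this test could not reach the threshold. Since the sign turned between arrays, no direction can be given.

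Mean ratios of sterol genes ran from -0.44 to 0.67, with an SD of 0.29 over genes, and 2 of 18 lay beyond 0.5. Those of fatty acid genes ran from -0.84 to 2.66, with an SD of 0.84, and 5 of 15 lay beyond 0.5, against 26.1% of all genes. The SD over all tested genes was 0.64, and over the 14 fatty acid genes without Acacb it was 0.42, a value computed after the ratios were seen. The 5 were Acacb, Scd1, Scd2, Elovl5 and Acsl4. The difference in spread was not tested.

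**Figure D4:**
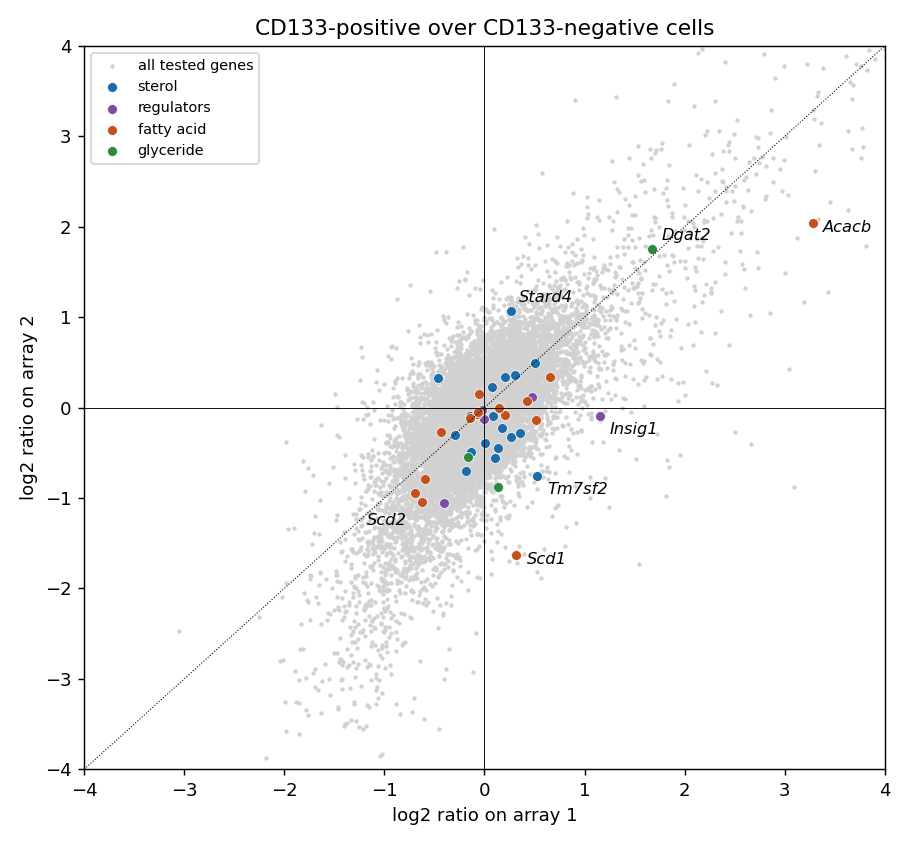
Log2 ratio on array 1 (horizontal axis) against array 2 (vertical axis) for all tested genes in grey and the 41 lipid synthesis genes in colour by role, with equal values on the dotted line and 48 genes beyond 4 in either direction not shown. Dgat2 lies on the line, Acacb at 3.28 and 2.04, and Scd1 and Insig1 fall below the line with array 1 above array 2.

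Calls among further genes of the pathways are set beside the 1.64% of all tested genes called in either direction. Of 15 other genes of sterol synthesis, uptake and export, 13 were tested and 0 called. They had 6 genes above 0 on both arrays and 4 below, and a median of 0.08. Of 22 other genes of fatty acid and glyceride synthesis, 17 were tested and 1 was called higher, the phosphatidate phosphatase Lpin3, at 1.34 and 1.56 (1.45 ± 0.15, adjusted p = 0.046). Their median was 0.07, with 0.23 on array 1 and -0.10 on array 2. All 15 genes of fatty acid oxidation were tested, with 0 called and a median of 0.03, 0.28 on array 1 and -0.12 on array 2.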

How the data were processed

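RNA of both fractions was extracted with Trizol, amplified and labelled with Cy3 or Cy5, per the labels. The deposited files hold spot and local background intensity from Agilent's Feature Extraction software, version 9.5.3.1, unnormalised, and processed signals, also an intensity, that the program background-subtracted, detrended and dye-normalised, per the file headers. A log10 ratio was deposited too, of Cy5 over Cy3 processed signals and equals the value table of the series in all 45018 spots. The deposited p-value of a spot comes from the program's error model for 1 array and was not used. No spot was saturated, and the number of arrays limits the precision.

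Intensities were corrected by normexp (offset 50) and normalised by loess within arrays, with control spots at weight 0. Spots with a non-uniformity or population outlier flag were left out, and replicate spots averaged. Tested probes were well above background in 1 fraction on both arrays, which left 23173 probes. Genes were named by accession or symbol through RefSeq (GRCm38.p6), and represented by their brightest tested probe. The mean log2 ratio was tested with limma 3.58.1 in R 4.3.3 (moderated, 1 residual and 2.86 prior degrees of freedom), two-sided, at a threshold of 0.05 after Benjamini-Hochberg adjustment across the tested genes. The step was tested on simulated data. Intensities by fraction are after Aquantile scaling between arrays. The report names every member, and other genes of the pathway lists where they passed, while markers are named as checks. The closing section also names 4 that did not pass. The members, lists and groups were chosen with earlier results of these data known, and the split of sterol enzymes at squalene and the 4 promoters printed were chosen after the values were seen.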

Additional observations from a re-analysis of the deposited data

How the results depend on the processing

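The number of genes called was 251 and depended on the processing. Leaving out the background correction gave 404, a smaller offset of 16 gave 548, and the number was 520 with scaling between arrays, 486 with the deposited value table, 425 with the deposited processed signals, 4013 and 10107 with median centring over the tested genes and over all probes, 29 with no filter on dim probes, 156 with the dimmest probe, 820 with a prior variance that follows intensity, 134 against a log2 fold of 0.5, 1405 with the 4 channels as separate samples and 705 by 2-fold size on both arrays. Without moderation limma called 0, with 1507 genes, 5 of them lipid synthesis genes, at an unadjusted p under 0.05.

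Of the lipid synthesis genes, 2 were called higher, Acacb and Dgat2, without background correction, with an offset of 16, with either median centring, with the intensity trend, with the channels as separate samples and by size. Over all genes, 285 to 2440 of 15267 were called higher in these settings. The number of lipid synthesis genes called higher was 0 with the processed signals, no filter, the dimmest probe, a log2 fold of 0.5 and no moderation. Over all genes it was 352, 29, 144, 130 and 0 there. The number of lipid synthesis genes called lower was 34 with median centring over all probes and 5 with centring over the tested genes (Acsl4, Elovl5, Fasn, Idi1 and Scd2). It was 1, Scd2, with the channels as separate samples. Over all 15267 genes, 9623, 1573 and 716 were called lower in these 3 settings. Of the 16 genes above 0 with loess, 14 were below 0 with centring over all probes, all but Acacb and Dgat2, among them Dhcr7 at -0.50 and Acsl1 at -0.47. Relative to the median of the tested genes those 2 stayed above 0. For a count over all 8 scalings, only the values from centring over all probes were taken relative to that median, and the others relative to 0. Counted so, 27 of the 41 genes kept their sign, among them the 8 with an unadjusted p under 0.05. The cause of these differences was not tested.

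The sterol median was -0.26 and -0.27 and the fatty acid median -0.25 and -0.26 with centring over all probes (relative to the tested genes) and over the tested genes, -0.025 with the value table, -0.011 with the processed signals, -0.0098 with the mean over probes and 0.052 with the dimmest probe. With a single array it was -0.082 and -0.051, the sterol median -0.26 and 0.12, and their difference -0.18 and 0.17. Without replicate 1 or 2 there is no residual degree of freedom and no test. The main test already pairs the fractions, since each array sets both against each other. The labels give 1 group of arrays, so no further pairing was possible.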

Other observations

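In fatty acid metabolism outside the set, Me1, a malic enzyme that supplies NADPH, was at -0.94 and -1.59 (limma adjusted p = 0.081) and Lpin2, a phosphatidate phosphatase related to Lpin1 and Lpin3, at -0.94 and -0.88 (adjusted p = 0.070). The oxidation genes Hadha and Hadhb, which encode the subunits of the mitochondrial trifunctional protein, were at 0.66 ± 0.14 and 0.63 ± 0.14 (adjusted p = 0.094 and 0.098). These missed the threshold and were named after their values were seen.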
